A study of Mus musculus with 16 samples.

Results

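Cerebellins, neurexins and neuronal pentraxins are genes of proteins that meet in the cleft between neurons. They are described here as a set of 9 genes: the cerebellin genes Cbln1, Cbln2 and Cbln4, the neurexin genes Nrxn2 and Nrxn3, the pentraxin genes Nptx1, Nptx2 and Nptxr, and Grip2. They were chosen by family and with earlier results of these arrays known, among them an effect of retinoic acid on Cbln2 that depends on the day. They are not whole families: Cbln3 and Grip1 are not members and are counted below in a separate list. A member was measured where a row of the array table carries its symbol and no other, and 8 of the 9 had such a row, out of 22180 genes measured in this way. The row that lists Nptxr names 3 genes, so no value is given for Nptxr. Nrxn2 has a second row, which is described separately.

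The 16 samples, in 6 groups, were each hybridised to 1 Affymetrix Mouse Gene 2.1 ST array. All cells came from iGPA-Myo7a:mVenus, a single mouse embryonic stem cell reporter line in which doxycycline (Dox) switches on Gfi1, Pou4f3 and Atoh1, which are transcription factors, while the fluorescent protein mVenus reports Myo7a expression. They formed embryoid bodies (EBs), aggregates of differentiating stem cells. EBs received Dox, or Dox with retinoic acid (RA), from day 4, and reporter-positive cells, named induced hair cells (iHCs) by the submitters, were sorted on day 8 after 4 days of treatment or on day 12 after 8 days. The Dox and the Dox+RA iHCs had 3 replicates at each day. Control EBs of day 8 and of day 12, with 2 replicates each, had neither Dox nor RA and were not sorted. Every difference between iHCs and control EBs therefore holds both treatment and sort, which cannot be told apart. Values are log2 RMA values, a normalized log2 intensity for each transcript, and a difference of 1 is a 2-fold difference in signal.

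Cerebellins are secreted proteins of the C1q family. In the cerebellum, Cbln1 from granule cells binds neurexins on the sending side of a synapse and bridges them to receptors on the receiving side. Neurexins are adhesion molecules of the presynaptic membrane that bind many partners, including neuroligins. Nptx1 and Nptx2 encode secreted pentraxins that gather AMPA-type glutamate receptors, and Grip2 encodes a PDZ scaffold that binds subunits of these receptors.

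As context for the induced factor Atoh1, which binds E-boxes (CANNTG, the same on both strands), the 250 bases before annotated transcript starts were read from RefSeq (GRCm38.p6). Such windows were at hand for 3 members, Cbln4, Grip2 and Nrxn3. Of the 5 windows, that of Cbln4 and the 1 of 3 Nrxn3 windows with the most E-boxes are shown, picked after the matches were seen, to show where such motifs lie. Cbln4, Grip2 and Nrxn3 were all higher in every iHC group than in control EBs. E-boxes are in capitals. The Cbln4 window is chr2:172043467-172043716, minus strand, and that of Nrxn3 is chr12:89812233-89812482, plus strand.
Cbln4: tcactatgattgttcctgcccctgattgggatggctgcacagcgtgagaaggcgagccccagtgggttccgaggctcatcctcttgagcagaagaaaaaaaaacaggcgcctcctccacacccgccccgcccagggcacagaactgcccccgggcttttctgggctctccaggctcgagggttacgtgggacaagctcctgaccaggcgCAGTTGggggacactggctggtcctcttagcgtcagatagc
Nrxn3: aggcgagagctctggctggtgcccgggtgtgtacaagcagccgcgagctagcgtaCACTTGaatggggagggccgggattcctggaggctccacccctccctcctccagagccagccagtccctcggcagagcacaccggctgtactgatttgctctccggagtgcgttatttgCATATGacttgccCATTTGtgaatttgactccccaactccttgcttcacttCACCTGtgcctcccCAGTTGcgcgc

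The Cbln4 window held 1 E-box, CAGTTG, beginning 41 bases before the start. The Nrxn3 window held 5, of which the nearest, CAGTTG, began 11 bases before the start. Another Nrxn3 window held 1 E-box, while the third Nrxn3 window and the Grip2 window had no match. Of 32851 such windows over all genes, 66.2% held at least 1 CANNTG, as did 3 of the 5 windows of these members. The E-box CAGCTG (13% of all windows) and the retinoid receptor half-site AGGTCA on either strand (14%) had no match in the 5 windows. These are matches of letters and not measured binding.

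The sorted cells carried the factors and many hair cell genes. Of 18 hair cell markers, which include the 3 induced factors and Myo7a, 13 were higher than in control EBs in Dox iHCs at day 8, 15 at day 12, and 14 and 15 in Dox+RA iHCs at the same days. Ocm (oncomodulin) and the nicotinic receptor gene Chrna9 were not called in any of these 4 comparisons, and the prestin gene Slc26a5 was called only in Dox+RA iHCs at day 12 (0.35 ± 0.09). Of 12 neuron markers 9, 8, 8 and 6 were higher and 0, 1, 0 and 1 lower in the same order. The mean of the neuron list lay between 4.63 and 5.04 on control arrays and between 6.25 and 6.95 on iHC arrays, and that of 8 mesenchyme markers between 8.73 and 9.53 and between 4.48 and 5.15. In whole-population RNA a smaller share of cells that express a gene and less RNA per cell cannot be told apart.

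Compared with control EBs, and leaving out Cbln2, whose iHC values were used to choose the genes, 4 of 7 members were higher in Dox iHCs at day 8, where 34.6% of all genes were called, 15.7% higher and 18.9% lower. At day 12 it was 6 of 7 in Dox iHCs, where 40.8% were called, 19.2% higher and 21.7% lower. In Dox+RA iHCs 6 of 7 were higher at day 8, where 41.6% were called, 19.6% higher and 22.0% lower, and 6 of 7 at day 12, where 44.8% were called, 22.4% higher and 22.4% lower. A gene was called in limma where its p, adjusted over all genes by Benjamini-Hochberg, was under 0.05, and the remaining members were not called in either direction. The median difference of the 7 was 1.06 and 2.03 in Dox iHCs and 1.23 and 2.70 in Dox+RA iHCs at days 8 and 12, and over all genes it was between 0.02 and 0.07. All members were chosen with earlier results of these data known. Here and below, the shares and medians over all genes are therefore a description beside the members and no test of the set. Cbln3 and Grip1, relatives that are not members, had smaller differences than these medians. Cbln3 stood at 0.53 and 0.57 in Dox iHCs and 0.56 and 0.57 in Dox+RA iHCs, and Grip1 at 0.45 and 0.81 and at 0.42 and 0.74. The 2 comparisons of one day share their control arrays. Besides the neuron and mesenchyme lists given above, other marker lists moved in the same comparisons. Of 8 Merkel cell markers (skin touch cells that also depend on Atoh1), 6 and 4 were higher and 2 and 0 lower in Dox iHCs at days 8 and 12, and 6 and 4 were higher and 1 and 1 lower in Dox+RA iHCs. The mean of that list lay between 6.53 and 6.73 on control arrays and between 8.07 and 9.31 on iHC arrays. Of 6 pluripotent cell markers 3, 4, 3 and 3 were lower and 1 higher each time, with list means between 6.27 and 6.65 on control and between 5.17 and 5.76 on iHC arrays. Of 7 glia and neural progenitor markers 2, 3, 2 and 3 were lower and 2, 1, 1 and 1 higher, with list means between 6.76 and 6.96 and between 5.80 and 6.36. Sox2 is in the Merkel cell, the pluripotent cell and the glia and neural progenitor list alike. Its group means were 8.21 and 7.76 in control EBs and between 8.67 and 9.72 in iHCs. The part of these lists in the members' differences was not tested.

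**Figure D1:**
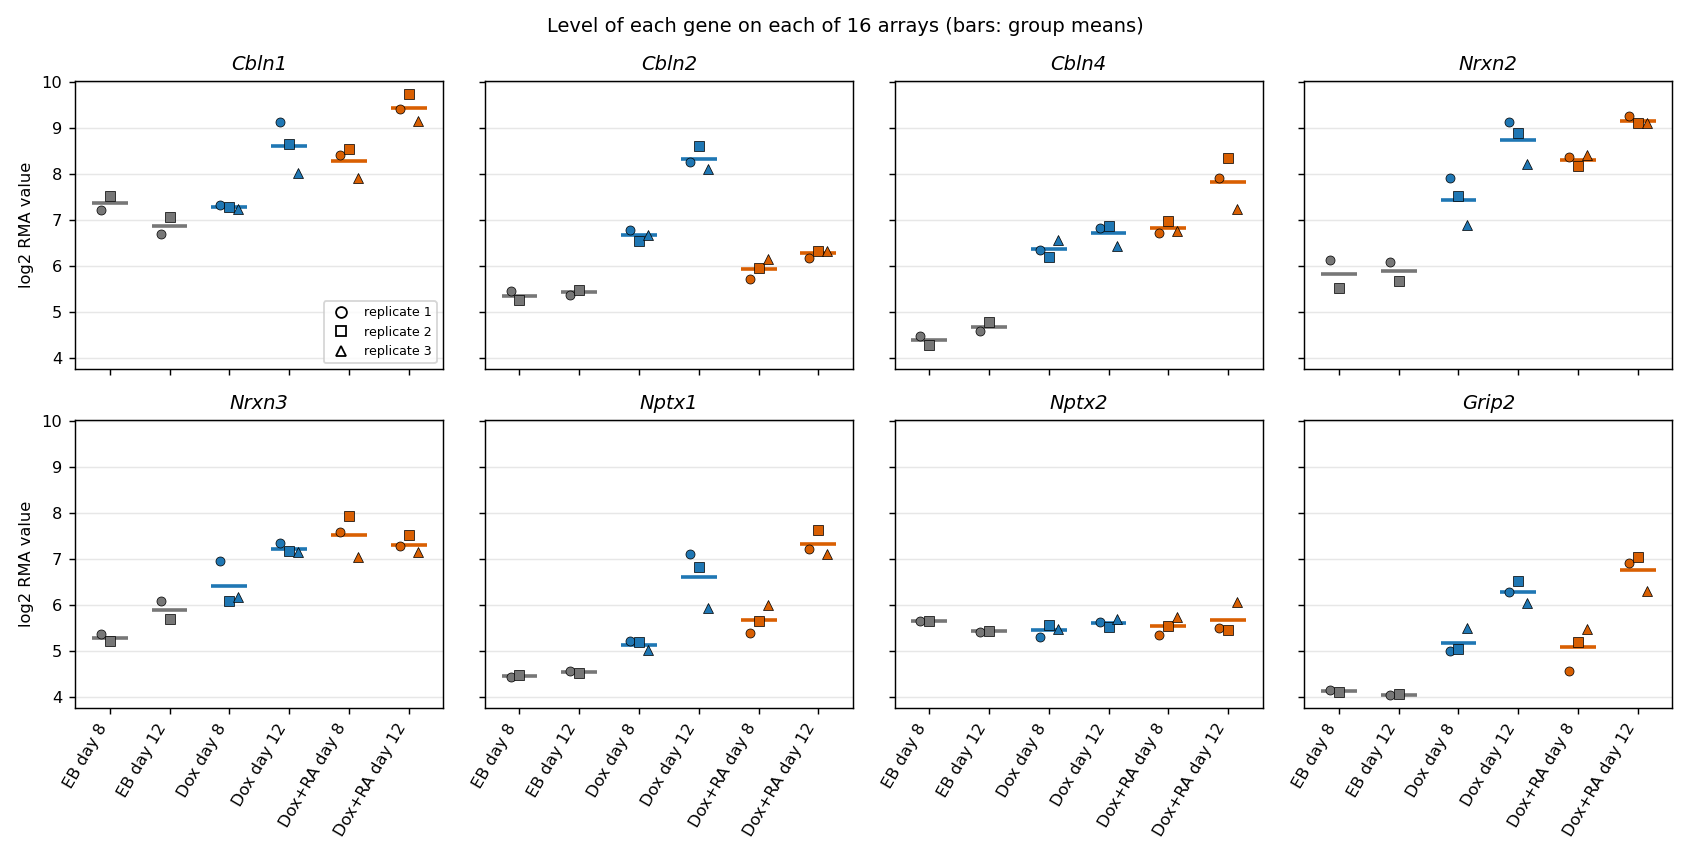
Log2 RMA value (vertical axis) of the 8 measured genes on each of 16 arrays, by group (horizontal axis); symbols mark the replicate number and horizontal bars the group mean. Control EB arrays lie lowest for Cbln2, Cbln4, Nrxn2, Nrxn3, Nptx1 and Grip2, Cbln2 is highest in Dox iHCs of day 12, and Nptx2 stays between 5.30 and 6.07 on all arrays.

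**Figure D2:**
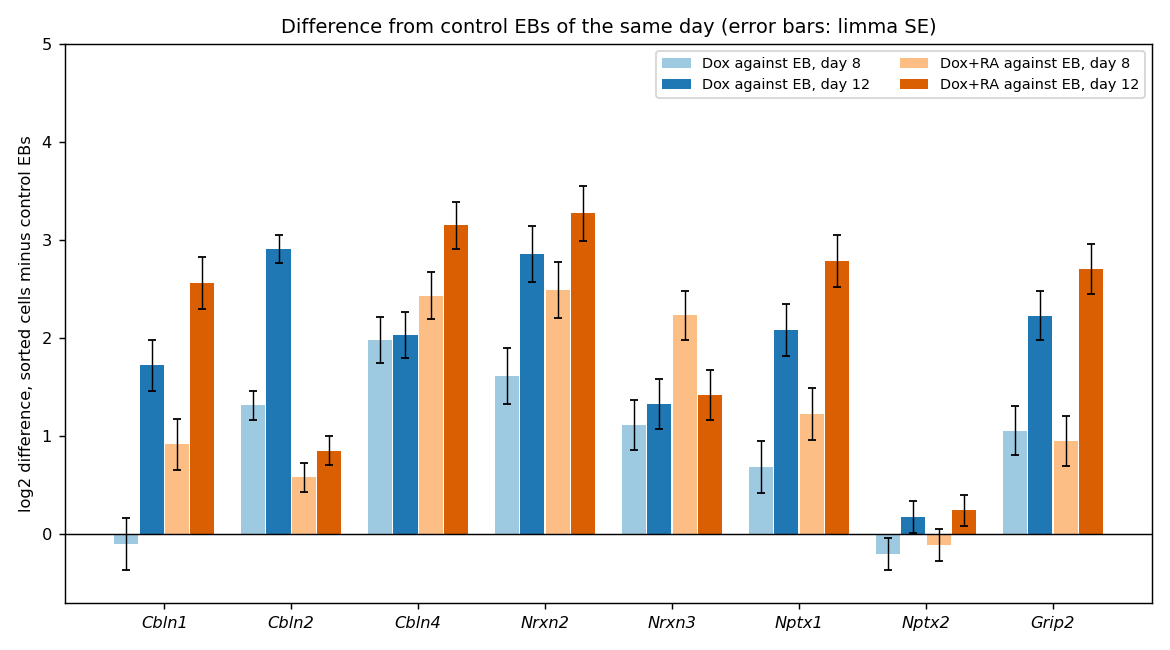
Log2 difference between iHCs and control EBs of the same day (vertical axis) for each gene (horizontal axis), with limma's standard error as error bars. The bars of Nrxn2 reach 2.86 in Dox and 3.27 in Dox+RA iHCs at day 12, and those of Nptx2 stay between -0.20 and 0.24.

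Among the secreted ligands, Cbln1 was called higher than in control EBs at day 12 only in Dox iHCs and at both days with RA. Its difference between Dox+RA and Dox iHCs was 1.02 ± 0.23 at day 8 and 0.84 ± 0.23 at day 12. Whether RA changed the timing was not tested. On control arrays Cbln1 read 7.22 and 7.52 at day 8 and 6.69 and 7.06 at day 12. Dox iHCs of day 8, at 7.31, 7.28 and 7.23, lay within the range of the control arrays of that day, and the difference was -0.10 ± 0.26 (SE; 95% interval -0.66 to 0.46, adjusted p = 0.83). At day 12 the Dox iHCs read 9.12, 8.64 and 8.03, all above both controls, a rise of 1.72 ± 0.26 (3.30-fold, adjusted p = 6.9e-05). Dox+RA iHCs of day 8 were above the controls, at 8.40, 8.55 and 7.91 (0.92 ± 0.26, adjusted p = 0.01). That call was lost when replicate 1 of the day 8 control EBs was left out (adjusted p = 0.0938), and the alternatives ran from 0.000314 to 0.0938. At day 12 they read 9.42, 9.74 and 9.16, the highest group, 2.56 ± 0.26 above control EBs (5.91-fold, adjusted p = 1.1e-06).

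Cbln2, whose product like Cbln1 binds neurexins, had its highest level without RA. Control EBs read 5.46 and 5.25 at day 8 and 5.38 and 5.47 at day 12. Dox iHCs read 6.78, 6.55 and 6.68 at day 8 and 8.27, 8.61 and 8.12 at day 12, and no array of either group overlapped the controls. The difference from control EBs was 1.31 ± 0.15 at day 8 and 2.91 ± 0.15 at day 12 (7.51-fold). Dox+RA iHCs stood between the controls and the Dox iHCs, at 5.72, 5.94 and 6.15 at day 8 and 6.17, 6.33 and 6.32 at day 12. Their differences from control EBs were 0.58 ± 0.15 and 0.85 ± 0.15, also with no overlap. These values are given without a test, since the iHC values of Cbln2 were used to choose the genes.

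The response of Cbln2 to RA, for which the genes were chosen, likewise has no test. Dox+RA minus Dox iHCs gave -0.73 ± 0.13 on the log2 scale at day 8 (1.66-fold lower) and -2.06 ± 0.13 at day 12 (4.16-fold lower), with no overlap between the arrays at either day. The RA effect at day 12 minus that at day 8 was -1.32 ± 0.19. From day 8 to day 12 Cbln2 differed by 1.66 ± 0.13 in Dox iHCs, by 0.34 ± 0.13 in Dox+RA iHCs and by 0.07 ± 0.16 in control EBs. The same double difference was -0.18 ± 0.33 for Cbln1, 0.67 ± 0.30 for Cbln4, -0.46 ± 0.36 for Nrxn2, -1.03 ± 0.32 for Nrxn3, 0.16 ± 0.33 for Nptx1, -0.03 ± 0.20 for Nptx2 and 0.58 ± 0.32 for Grip2. Nrxn3 had the second most negative value, and there the RA difference was a higher level at day 8 and near 0 at day 12.

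Cbln4, another secreted cerebellin, rose in every iHC group. Control EBs read 4.48 and 4.29 at day 8 and 4.58 and 4.78 at day 12. Dox iHCs read 6.34, 6.19 and 6.57 at day 8 and 6.83, 6.86 and 6.43 at day 12, and the arrays of the 2 days overlapped. Dox+RA iHCs read 6.73, 6.98 and 6.75 at day 8 and 7.90, 8.35 and 7.23 at day 12. The lowest iHC array was thus 6.19 and the highest control array 4.78. The rises were 1.98 ± 0.24 and 2.03 ± 0.24 in Dox iHCs (adjusted p = 9.8e-06 and 5.2e-06) and 2.43 ± 0.24 and 3.15 ± 0.24 in Dox+RA iHCs (adjusted p = 7.8e-07 and 4.4e-08), the last being 8.87-fold.

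**Figure D3:**
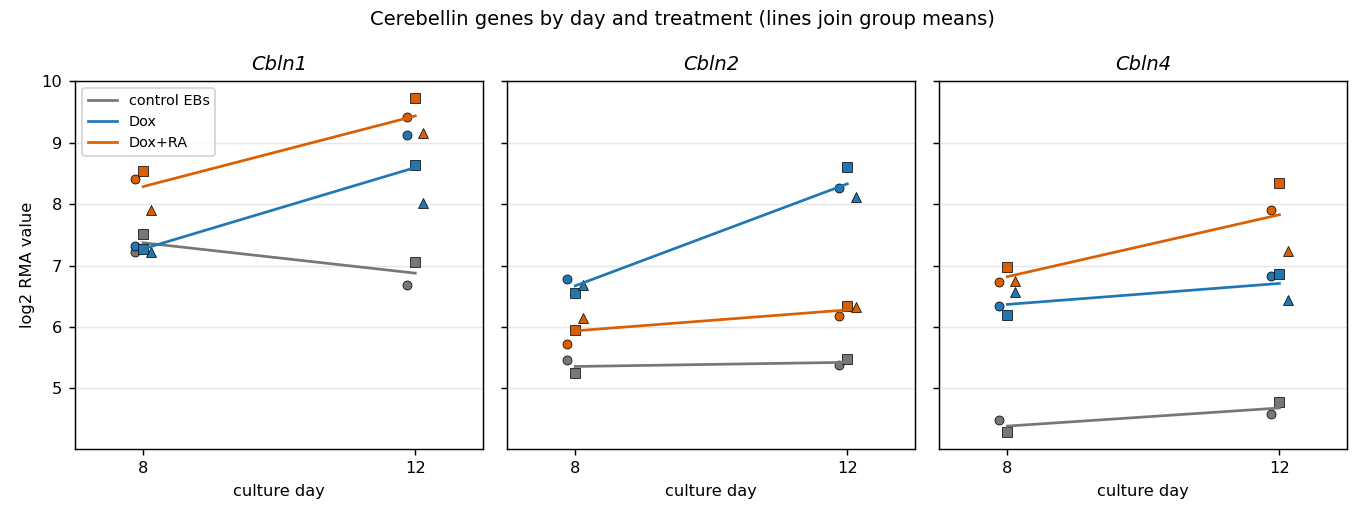
Log2 RMA value (vertical axis) of the cerebellin genes at culture days 8 and 12 (horizontal axis) in control EBs (grey), Dox iHCs (blue) and Dox+RA iHCs (orange); circles, squares and triangles are replicates 1, 2 and 3, and lines join group means. With RA, Cbln1 and Cbln4 lie above their Dox means at both days, while Cbln2 lies below, at 6.28 against 8.33 at day 12.

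Nrxn2 encodes a neurexin, which sits on the presynaptic membrane, and it was higher in every iHC group. It read 6.12 and 5.53 on the control arrays of day 8 and 6.09 and 5.67 on those of day 12. Dox iHCs read 7.92, 7.52 and 6.88 at day 8 and 9.12, 8.88 and 8.21 at day 12, with replicate 3 lowest at both days. Dox+RA iHCs read 8.36, 8.16 and 8.42 at day 8 and 9.25, 9.11 and 9.10 at day 12. All iHC arrays were above all control arrays. The rises were 1.62 ± 0.28 and 2.86 ± 0.28 in Dox iHCs at days 8 and 12 (adjusted p = 0.00034 and 9.3e-07) and 2.49 ± 0.28 and 3.27 ± 0.28 in Dox+RA iHCs (adjusted p = 3.8e-06 and 1.9e-07). The largest is 9.66-fold.

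Against control EBs the second row of Nrxn2 had smaller differences of the same sign. They were below those of Nrxn3 in all 4 comparisons, whereas those of the first row were above them. On it the control arrays read between 4.35 and 5.21 and the iHC arrays between 5.62 and 6.36. In a fit of all table rows its rises were 1.11 ± 0.16 and 0.89 ± 0.16 in Dox iHCs at days 8 and 12 and 1.40 ± 0.16 and 1.12 ± 0.16 in Dox+RA iHCs (limma adjusted p between 4.9e-06 and 0.00038). Between days in Dox iHCs it differed by 0.26 ± 0.14 (adjusted p = 0.37), where the first row rose. With RA at day 8 it differed by 0.29 ± 0.14 and over time in Dox+RA iHCs by 0.19 ± 0.14 (adjusted p = 0.33 and 0.58). The first row gave 0.87 ± 0.25 and 0.84 ± 0.25 there. The rows had opposite signs for the time change in Dox iHCs minus that in control EBs, at -0.22 ± 0.23 (adjusted p = 0.81) on the second and 1.24 ± 0.40 on the first. Which transcripts each row reads is not given in the sources used here.

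Nrxn3 read 5.36 and 5.21 on control arrays of day 8 and 6.07 and 5.69 on those of day 12. Dox iHCs read 6.95, 6.08 and 6.16 at day 8, with replicate 1 apart from the others, and 7.33, 7.17 and 7.14 at day 12. Dox+RA iHCs of day 8 read 7.57, 7.93 and 7.04, which overlaps the 7.27, 7.51 and 7.14 of day 12. Against control EBs the rises were 1.12 ± 0.25 and 1.33 ± 0.25 in Dox iHCs (adjusted p = 0.0027 and 0.00052) and 2.23 ± 0.25 and 1.42 ± 0.25 in Dox+RA iHCs (adjusted p = 3.7e-06 and 0.00027).

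The pentraxin genes differed from each other. Nptx1 read 4.43 and 4.46 on control arrays of day 8 and 4.55 and 4.50 on those of day 12. Dox iHCs read 5.20, 5.18 and 5.01 at day 8, above both controls, but the difference of 0.69 ± 0.26 did not pass the test (adjusted p = 0.056). It passed with the replicate number as a block (adjusted p = 0.0275), and over the alternatives the adjusted p ran from 0.00233 to 0.174. At day 12 the Dox iHCs read 7.10, 6.81 and 5.92, with replicate 3 well below the others, and the rise was 2.08 ± 0.26 (adjusted p = 1.1e-05). Dox+RA iHCs read 5.38, 5.65 and 5.99 at day 8 and 7.21, 7.62 and 7.11 at day 12, rises of 1.23 ± 0.26 (adjusted p = 0.0013) and 2.79 ± 0.26 (6.90-fold, adjusted p = 4.6e-07).

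Nptx2, the activity-regulated pentraxin also called Narp, lay in one narrow band. Control arrays read 5.63 and 5.65 at day 8 and 5.41 and 5.43 at day 12, and iHC arrays ran from 5.30 to 6.07, the highest being Dox+RA day 12 replicate 3. Nptx2 was not called in any of the comparisons made. Its 95% intervals against control EBs were -0.55 to 0.14 and -0.17 to 0.52 in Dox iHCs at days 8 and 12, and -0.46 to 0.23 and -0.10 to 0.59 in Dox+RA iHCs. The arrays carry no detection call, so it was not established that the row reads Nptx2 above background.

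Grip2, the scaffold gene, read between 4.03 and 4.13 on the 4 control arrays. Dox iHCs read 5.00, 5.03 and 5.49 at day 8 and 6.28, 6.51 and 6.03 at day 12. Dox+RA iHCs read 4.56, 5.18 and 5.47 at day 8 and 6.90, 7.05 and 6.29 at day 12. At each day the arrays of the iHC groups overlapped each other and none overlapped the controls. The rises were 1.06 ± 0.25 (adjusted p = 0.0039) and 2.23 ± 0.25 (adjusted p = 3.7e-06) in Dox iHCs and 0.95 ± 0.25 (adjusted p = 0.0064) and 2.70 ± 0.25 (adjusted p = 4.3e-07) in Dox+RA iHCs.

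The addition of RA was asked by setting Dox+RA against Dox iHCs. Leaving out Cbln2, 2 of 7 members were higher with RA at day 8, where 4.93% of all genes were called, 2.05% higher and 2.89% lower. At day 12 it was 1 of 7, where 0.924% were called, 0.383% higher and 0.541% lower. At day 8 these were Cbln1 (1.02 ± 0.23, adjusted p = 0.022) and Nrxn3 (1.12 ± 0.23, adjusted p = 0.012), and at day 12 it was Cbln4 (1.12 ± 0.21, 2.17-fold, adjusted p = 0.021). So at day 12 Cbln4 rose with RA, whereas the Cbln2 values given above lay lower with RA. Each call rested on few arrays. That of Cbln1 was lost without Dox day 8 replicate 2 or 3 or Dox+RA day 8 replicate 1 or 2 (adjusted p = 0.0849, 0.0825, 0.0784 and 0.098, range over the alternatives 0.00187 to 0.098). That of Nrxn3 was lost without Dox day 8 replicate 2 or 3 or Dox+RA day 8 replicate 2 (adjusted p = 0.0724, 0.0624 and 0.0576) or with only the groups compared in the fit (adjusted p = 0.0652; range 0.00133 to 0.0724). That of Cbln4 was lost without Dox day 12 replicate 2 or 3 or Dox+RA day 12 replicate 1 or 2 (adjusted p = 0.0706, 0.0809, 0.0851 and 0.088) or with only the groups compared (adjusted p = 0.201; range 0.000798 to 0.201).

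Other members had values that did not pass the test for RA. Nrxn2 at day 8 differed by 0.87 ± 0.25 without overlap between arrays (adjusted p = 0.063, and 0.00719 with the replicate block, range over the alternatives 0.00719 to 0.258). Cbln1 at day 12 differed by 0.84 ± 0.23, also without overlap (adjusted p = 0.12, and 0.0152 with the replicate block, range 0.0152 to 0.388). Nptx1 differed by 0.54 ± 0.23 and 0.70 ± 0.23 at days 8 and 12 (adjusted p = 0.22 and 0.21). Grip2 differed by -0.10 ± 0.23 and 0.47 ± 0.23 (adjusted p = 0.87 and 0.43), and Nrxn3 at day 12 by 0.09 ± 0.23 (adjusted p = 0.92; 95% interval -0.39 to 0.58). The median of the 7 was 0.54 at day 8 and 0.47 at day 12, against 0.02 and 0.03 over all genes. Hair cell markers moved in the same comparison at day 8, with 6 of 18 higher with RA and list means between 7.18 and 7.63 on Dox and between 7.78 and 8.04 on Dox+RA arrays, and their part in the result was not tested.

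From day 8 to day 12, leaving out Cbln2, 5 of 7 members rose in Dox iHCs, where 8.05% of all genes were called, 3.39% higher and 4.66% lower. That count takes Nrxn2 by its first row, and the second row differed by 0.26 ± 0.14 (limma adjusted p = 0.37). In Dox+RA iHCs 4 of 7 rose, where 4.38% were called, 1.78% higher and 2.61% lower. Cbln1, Nptx1 and Grip2 rose in both. In Dox iHCs the rises were 1.33 ± 0.23 for Cbln1 (adjusted p = 0.0044), 1.48 ± 0.23 for Nptx1 (adjusted p = 0.0029), 1.10 ± 0.23 for Grip2 (adjusted p = 0.0092), 1.30 ± 0.25 for Nrxn2 (adjusted p = 0.0071) and 0.82 ± 0.23 for Nrxn3 (adjusted p = 0.041). In Dox+RA iHCs they were 1.15 ± 0.23 for Cbln1 (adjusted p = 0.014), 1.64 ± 0.23 for Nptx1 (adjusted p = 0.0015), 1.68 ± 0.23 for Grip2 (adjusted p = 0.0012) and 1.01 ± 0.21 for Cbln4 (adjusted p = 0.016). Nrxn2 in Dox+RA iHCs differed by 0.84 ± 0.25 (adjusted p = 0.081, and 0.0112 with the replicate block; range 0.00714 to 0.236). Cbln4 in Dox iHCs differed by 0.34 ± 0.21 (adjusted p = 0.40) and Nrxn3 in Dox+RA iHCs by -0.21 ± 0.23 (adjusted p = 0.71).

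Several of these calls depended on single arrays. The call of Nrxn3 over time was lost without Dox day 8 replicate 2 or 3 (adjusted p = 0.175 and 0.156) and without Dox day 12 replicate 1 or 2 (0.152 and 0.0938). It was also lost, at adjusted p from 0.05 to 0.052, without either control EB array of day 8 or without replicate 1 of either Dox+RA group, and with only the groups compared it was 0.0947 (range over the alternatives 0.00508 to 0.175). The call of Nrxn2 was lost with only the groups compared (adjusted p = 0.068, range 0.000543 to 0.068). In Dox+RA iHCs the call of Cbln1 was lost without day 8 replicate 3 or day 12 replicate 2 (adjusted p = 0.0574 and 0.0773; range 0.000967 to 0.0773). That of Cbln4 was lost without day 8 replicate 3 or day 12 replicate 1 or 2 (adjusted p = 0.0533, 0.0632 and 0.0744) and with only the groups compared (0.0593; range 0.000757 to 0.0744). The calls of Nptx1 and Grip2 held under every alternative in both kinds of iHC. In Dox iHCs 4 of 18 hair cell markers rose over the same days, with list means of 7.18 to 7.63 and then 7.55 to 8.05, and in Dox+RA iHCs 1 of 18 fell, with list means of 7.78 to 8.04 and then 7.74 to 8.06. Of 12 neuron markers 2 rose and 3 fell in Dox iHCs and 2 fell in Dox+RA iHCs, and the list mean was 6.43 to 6.92 and then 6.42 to 6.67 in Dox iHCs, and 6.70 to 6.95 and then 6.25 to 6.61 in Dox+RA iHCs. The part of either list in the members' changes was not tested.

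In control EBs 0 of the 8 members were called between the days in limma, where 3.75% of all genes were called, 2.33% higher and 1.42% lower. At an unadjusted p under 0.05 there was 1 member, and the share of all genes at that p is not given. The largest values were 0.60 ± 0.28 for Nrxn3 (adjusted p = 0.35) and -0.50 ± 0.29 for Cbln1 (adjusted p = 0.50). The time change of Dox iHCs minus that of control EBs was called higher for 1 of 7 members, where 2.84% of all genes were called, 1.03% higher and 1.81% lower. That of Dox+RA iHCs was called higher for 3 of 7, where 2.62% were called, 0.956% higher and 1.67% lower. Cbln1 was called in both, at 1.82 ± 0.37 (adjusted p = 0.015) and 1.65 ± 0.37 (adjusted p = 0.028). Nptx1 (1.56 ± 0.37, adjusted p = 0.038) and Grip2 (1.75 ± 0.36, adjusted p = 0.016) were called with RA. Each of these 4 calls was lost when 1 control array was left out. The highest adjusted p without a control array was 0.0946 and 0.154 for Cbln1 in Dox and Dox+RA iHCs, 0.144 for Nptx1 and 0.0721 for Grip2, and the counts of called members ran from 0 to 3 and from 0 to 4 when single arrays were left out. Without RA Nptx1 and Grip2 stood at 1.39 ± 0.37 (adjusted p = 0.061, and 0.0337 with the replicate block, range 0.00165 to 0.182) and 1.17 ± 0.36 (adjusted p = 0.11), and Nrxn2 at 1.24 ± 0.40 (adjusted p = 0.13, and 0.0212 with the block, range 0.0212 to 0.453).

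The order of the group means differed between members. Cbln1 ran from control EBs of day 12 (6.88 ± 0.27, SD) through Dox day 8 (7.27 ± 0.04) and control EBs of day 8 (7.37 ± 0.21), which overlapped, to Dox+RA day 8 (8.29 ± 0.33) and Dox day 12 (8.60 ± 0.55), which overlapped too, and Dox+RA day 12 (9.44 ± 0.29). For Cbln2 the neighbours were apart except the control groups, in the order control EBs, Dox+RA day 8 (5.94 ± 0.21), Dox+RA day 12 (6.28 ± 0.09), Dox day 8 (6.67 ± 0.12) and Dox day 12 (8.33 ± 0.26). Cbln4 was lowest in control EBs, overlapped across Dox day 8 (6.37 ± 0.19), Dox day 12 (6.71 ± 0.24) and Dox+RA day 8 (6.82 ± 0.14), and was highest in Dox+RA day 12 (7.83 ± 0.56). Nrxn2 rose along Dox day 8 (7.44 ± 0.52), Dox+RA day 8 (8.31 ± 0.13), Dox day 12 (8.74 ± 0.47) and Dox+RA day 12 (9.15 ± 0.09), of which the last 3 overlapped as neighbours. The highest mean of Nrxn3 was in Dox+RA day 8 (7.51 ± 0.45), which overlapped Dox+RA day 12 (7.31 ± 0.19), and this overlapped Dox day 12 (7.21 ± 0.10). Nptx1 followed the order of Nrxn2 at 5.13 ± 0.10, 5.67 ± 0.31, 6.61 ± 0.62 and 7.31 ± 0.27, with overlap between the middle groups. Grip2 had Dox+RA day 8 (5.07 ± 0.47) and Dox day 8 (5.17 ± 0.28) overlapping, then Dox day 12 (6.27 ± 0.24) and Dox+RA day 12 (6.75 ± 0.40) overlapping. All neighbours of Nptx2 overlapped, from 5.42 ± 0.01 in control EBs of day 12 to 5.67 ± 0.35 in Dox+RA iHCs of day 12.

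In Dox iHCs of day 12 replicate 3 was the lowest array for Cbln1, Cbln2, Cbln4, Nrxn2, Nrxn3, Nptx1 and Grip2. That array also had the highest mean of the mesenchyme list in its group, 5.15 against 4.60 and 4.56, and the lowest of the hair cell list, 7.55 against 8.05 and 7.79. The part of this in the values was not tested, and the calls against control EBs at day 12 held without that array.

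Genes whose 16 values followed a member most closely were named by Pearson correlation, which describes 6 groups of arrays that share a treatment and has no test. The other members, and predicted or small RNA genes (names such as Gm, Rik, LOC, Mir or Snor), were passed over. Those named are thus the closest of the remaining genes only. For Cbln2 they were Htr1b (r = 0.948), a serotonin receptor gene, Plscr1 (0.903), Pcdh10 (0.897), Pik3ap1 (0.893) and Pdzrn4 (0.892). Over the 12 iHC arrays alone they were Ampd3 (0.955), Lrrc38 (0.948), Hibch (0.944), the taste cation channel gene Trpm5 (0.943) and again Htr1b (0.938). Those of Cbln1 were Epha1 (0.969), the hair cell transduction channel gene Tmc1 (0.968) and Pnpla3 (0.967). Cbln4 was followed by Coro2b (0.979), Tmem91 (0.977) and Ptp4a3 (0.974), and Nrxn2 by Col11a2 (0.991), Tmem179 (0.987) and Fam222a (0.985). For Nrxn3 they were Rab11fip3 (0.973), Pdzd7 (0.967), a stereocilia link scaffold gene, and Loxhd1 (0.964), a gene of hair cell function. Nptx1 was matched by Phactr1 (0.971), Mkln1os (0.971) and Zxdb (0.969), Grip2 by Dmxl1 (0.957), Sipa1l3 (0.956) and Gprin3 (0.955), and Nptx2, with lower values, by Ccdc184 (0.836), Olfr10 (0.809) and Cstdc1 (0.803).

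Genes of other synaptic proteins, here called partners, were counted from a list of 32 genes, of which 29 had a row of their own. Not all stand across the synapse from the members. The list also holds Apba1 of the presynaptic scaffold, the secreted C1ql1 and Cbln3, and Grip1. Against control EBs, 8 were higher and 4 lower in Dox iHCs at day 8, where 15.7% and 18.9% of all genes were. At day 12 there were 9 higher and 6 lower (19.2% and 21.7%). In Dox+RA iHCs 8 were higher and 3 lower at day 8 (19.6% and 22.0%), and 10 higher and 5 lower at day 12 (22.4% and 22.4%). The shares of partners called, 12, 15, 11 and 15 of 29, were near those of all genes, and the list's median was 0.16, 0.10, 0.24 and 0.08. Without control EB day 8 replicate 1 the count in Dox iHCs of day 8 was 7.

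**Figure D4:**
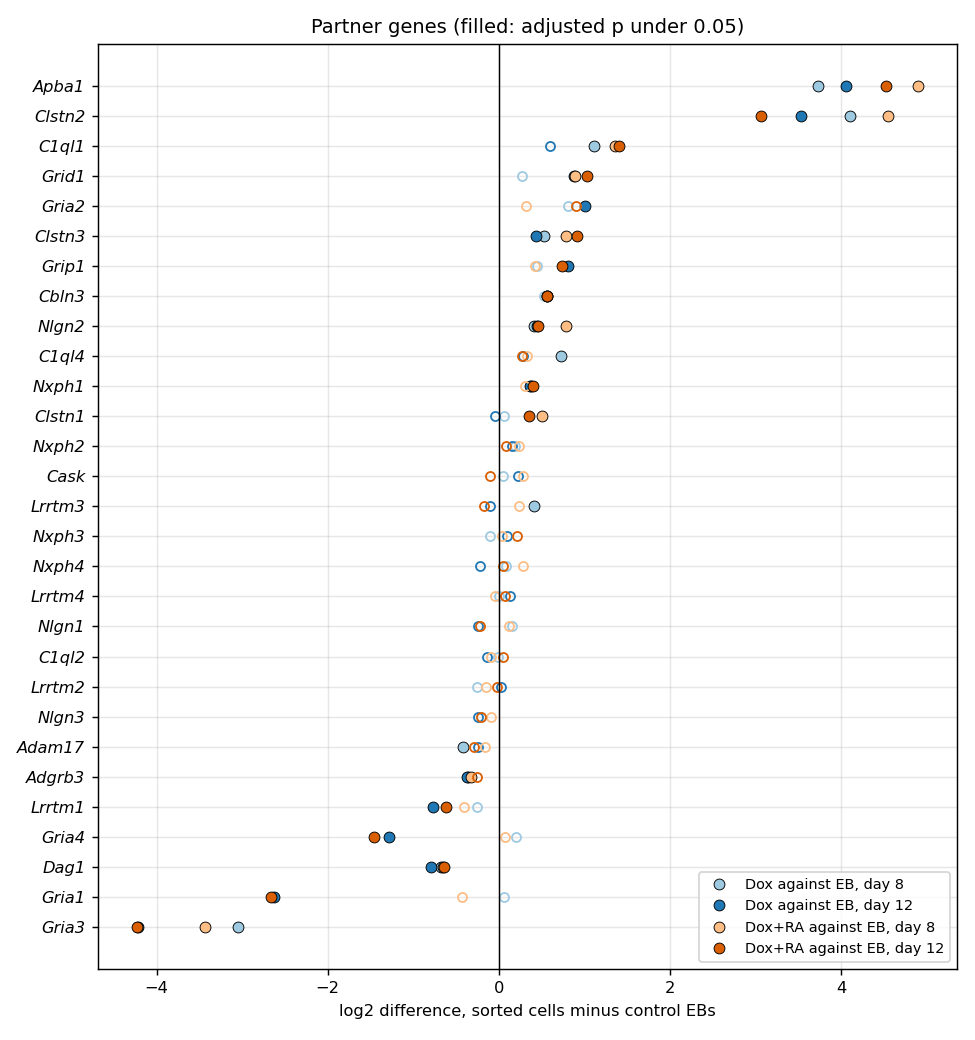
Log2 difference between iHCs and control EBs of the same day (horizontal axis) for 29 partner genes (vertical axis, sorted by mean difference); filled points passed an adjusted p of 0.05 and open points did not. Apba1 and Clstn2 lie furthest to the right in all 4 comparisons, up to 4.90 and 4.55, and Gria3 furthest to the left, down to -4.23.

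The largest rises among the partners were those of Apba1 and Clstn2 in all 4 comparisons. Apba1, an adaptor of the presynaptic scaffold that contains Cask, rose by 3.73 ± 0.23 and 4.06 ± 0.23 in Dox iHCs at days 8 and 12 and by 4.90 ± 0.23 and 4.53 ± 0.23 in Dox+RA iHCs (adjusted p between 5.5e-10 and 1.4e-08). Clstn2, a calsyntenin of the synaptic membrane, rose by 4.11 ± 0.21, 3.53 ± 0.21, 4.55 ± 0.21 and 3.06 ± 0.21 in the same order (adjusted p between 4.8e-10 and 1.9e-08). C1ql1, a C1q-family ligand related to cerebellins, rose by 1.11 ± 0.31 in Dox iHCs at day 8 and by 1.36 ± 0.31 and 1.41 ± 0.31 in Dox+RA iHCs (adjusted p = 0.012, 0.0023 and 0.0016), and differed by 0.60 ± 0.31 in Dox iHCs at day 12 (adjusted p = 0.15). Grid1, which encodes a glutamate receptor of the delta family, rose by 0.88 ± 0.22 in Dox iHCs at day 12 and by 0.89 ± 0.22 and 1.03 ± 0.22 in Dox+RA iHCs (adjusted p = 0.0037, 0.0035 and 0.001), and differed by 0.28 ± 0.22 in Dox iHCs at day 8 (adjusted p = 0.38). Cbln3, the remaining cerebellin gene, was called higher in all but Dox iHCs of day 8, at 0.57 ± 0.20 in Dox iHCs of day 12 and 0.56 ± 0.20 and 0.57 ± 0.20 in Dox+RA iHCs (adjusted p = 0.034, 0.035 and 0.031).

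The pentraxins gather AMPA receptors, whose subunit genes differed among themselves. Gria3 was lower than in control EBs in all 4 comparisons, with differences of -3.04 ± 0.23 and -4.22 ± 0.23 in Dox iHCs and -3.43 ± 0.23 and -4.23 ± 0.23 in Dox+RA iHCs (adjusted p between 1.6e-09 and 8.9e-08). Its group means were 7.44 and 8.30 in control EBs and between 4.01 and 4.40 in iHCs. Gria1 was lower than in control EBs at day 12, at -2.63 ± 0.18 in Dox and -2.66 ± 0.18 in Dox+RA iHCs (adjusted p = 2.2e-08 and 1.6e-08). There the control EBs themselves had risen by 2.27 ± 0.20 since day 8 (adjusted p = 9.3e-06). At day 8 the Gria1 means were 4.99 in control EBs, 5.05 in Dox and 4.56 in Dox+RA iHCs. At day 12 they were 7.25, 4.63 and 4.59. Gria4 was also lower than in control EBs at day 12, at -1.29 ± 0.17 and -1.46 ± 0.17 (adjusted p = 1.9e-05 and 4.9e-06), and rose over time in control EBs by 1.22 ± 0.19 (adjusted p = 0.0014). Gria2 was called higher in Dox iHCs at day 12 only, with means of 7.34 and 6.34 (adjusted p = 0.046). Its differences in the other comparisons were 0.81 ± 0.38 in Dox iHCs at day 8 and 0.31 ± 0.38 and 0.90 ± 0.38 in Dox+RA iHCs (adjusted p = 0.12, 0.55 and 0.067). Whether the AMPA receptor RNA of the control EBs came from neurons or other cells was not measured.

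With RA, 2 of the 29 partners rose at day 8, where 2.05% of all genes did, namely Apba1 (1.18 ± 0.21, adjusted p = 0.0053) and Clstn1 (0.44 ± 0.11, adjusted p = 0.033), and with the replicate block 4 were called. At day 12, where 0.924% of all genes were called, limma called 0 of 29. At an unadjusted p under 0.05 there were 6, and with the replicate block 3 were called. The shares of all genes in this paragraph are adjusted calls of the fit without the block. They are no background for counts with the block or at an unadjusted p. Over time 2 rose in Dox iHCs (3.39% of all genes), which were Grid1 (0.72 ± 0.19, adjusted p = 0.034) and Nlgn2 (0.43 ± 0.12, adjusted p = 0.036), and 4 were called with the block. Among Dox+RA iHCs 1 fell over time (2.61% of all genes), Clstn2, at -0.75 ± 0.19 (adjusted p = 0.039), and 2 were called with the block. Without Dox day 8 replicate 2 or 3, or Dox day 12 replicate 1 or 2, 0 were called over time in Dox iHCs.

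Markers of other neurons that depend on Atoh1 were read beside the members, since cerebellar granule cells make Cbln1. Of 8 granule neuron markers 3, 3, 2 and 2 were higher in Dox iHCs at days 8 and 12 and in Dox+RA iHCs at days 8 and 12. Of the 8, 1 was lower in all but Dox iHCs of day 8. Over all genes 15.7%, 19.2%, 19.6% and 22.4% were higher and 18.9%, 21.7%, 22.0% and 22.4% lower in these comparisons. The lower marker was Etv1, with group means of 5.99 and 6.84 in control EBs at days 8 and 12. It stood at 5.08 and 3.99 in Dox iHCs and at 3.37 and 3.66 in Dox+RA iHCs. The higher ones were Zic2, in Dox iHCs only, Barhl1, which is also a hair cell marker, and Neurod1 (0.84, 0.52, 0.93 and 0.62). Gabra6, a marker of mature granule cells, stood at 0.09, -0.03, 0.15 and 0.06 and was not called. Of 5 markers of dorsal interneurons 1 was higher in each comparison, Pou4f1, while Lhx2 was lower in all but Dox+RA iHCs of day 12 and Barhl2 and Lhx9 were not called. The part of such cells in the cerebellin values was not tested.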

How the data were processed

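The 16 arrays were used as deposited: per the submitters' processing notes the authors made log2 RMA values with Affymetrix Expression Console, no version given. RMA corrects background, equalises array distributions, and compresses changes at low signal. Values ran from 1.44 to 12.3 and array medians from 4.67 to 4.82. The number of arrays limits precision, and no source used here gives the arrays' batches. Of 33708 rows, 23521 carry 1 symbol, 1814 several and 8373 none. The row with the highest mean stood for each of 1082 genes with several, which left 22180 genes. Limma 3.58.1 (R 4.3.3) fitted 6 group means over all arrays, with lmFit, contrasts.fit and eBayes. A gene was called where its adjusted p (Benjamini-Hochberg, over all genes) was under 0.05, and ± is the limma standard error beside a difference and the SD beside a level. The method was tested on simulated data with independent noise on each array. That test did not cover deviations shared by arrays of the same replicate number.

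The members and lists were chosen with earlier results of these data known. Because Cbln2 was named for its RA effect by day, every difference that holds its iHC values has no test and it is left out of those counts. Named genes were all members, up to 4 called partners each way per comparison with the largest differences, and at most 4 markers of a list. The genes most correlated with each member, passing over members and predicted or small RNA genes, were named too. Cbln3, Grip1, Ocm, Chrna9, Slc26a5, Neurod1, Gabra6, Zic2, Etv1, Sox2, Lhx2, Barhl2, Lhx9 and the not-called Gria and Grid1 values came in addition. They were picked after their values were seen. Replicate numbers: in all 6 pairs of iHC groups same-numbered arrays deviated together (18 correlations, 0.147 to 0.513), so values with a replicate block are given where they change a call. The labels do not say what equal numbers share. Alternatives were 9 settings and the omission of each of 16 arrays. Promoter windows came from RefSeq, GRCm38.p6. Figures used Python 3.11.15, pandas 2.3.3 and matplotlib 3.10.9.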

Additional observations from a re-analysis of the deposited data

Results flagged for a closer look

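For 3 members the change from day 8 to day 12 in iHCs differed from that in control EBs by a test of the difference itself. Cbln1 differed by 1.82 ± 0.37 in Dox iHCs and by 1.65 ± 0.37 in Dox+RA iHCs, Nptx1 by 1.56 ± 0.37 and Grip2 by 1.75 ± 0.36 in Dox+RA iHCs. All 4 calls were lost without at least 1 control EB array, which leaves 1 control array at that day: Cbln1 without day 8 replicate 2 (adjusted p = 0.0895 and 0.148) or day 12 replicate 1 (0.0946 and 0.154), Nptx1 without any of the 4 (0.0846 to 0.144), and Grip2 without day 8 replicate 2 (0.0668) or day 12 replicate 1 or 2 (0.0721 and 0.0556). Leaving out certain iHC arrays also ended the Cbln1 call with RA, at up to 0.0743, and the Nptx1 call, at up to 0.0969.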

How the results depend on the processing

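Of 38 member differences called, 26 kept their direction and call under all 25 alternatives, among them 21 of the 22 against control EBs. Of 40 not called, 31 stayed uncalled under all of them, 3 of these with a change of sign and a shift of at least 1 standard error, and 9 gained a call. Leaving out 1 array gave 4 to 5 called members in Dox and 5 to 6 in Dox+RA iHCs against control EBs at day 8, and 6 at day 12. The partner counts were 7 to 15 and 11 to 15 for Dox and 8 to 13 and 12 to 16 for Dox+RA at days 8 and 12. For RA the members gave 0 to 4 at day 8 and 0 to 2 at day 12, and the partners 1 to 5 and 0 to 1. Over time the members gave 4 to 5 in Dox and 2 to 5 in Dox+RA iHCs, the partners 0 to 5 and 0 to 1, and for control EBs the counts were 0 and 2 to 3. For the time change minus that of control EBs they gave 0 to 3 (Dox) and 0 to 4 (Dox+RA). The double difference of Cbln2, by which the genes were chosen, ran from -1.43 to -1.18 with single arrays left out. Over all 25 alternatives it ran from -1.45 to -1.18, and it has no test. With the replicate block, called members numbered 2 for RA at day 12 and 3 for the time change of Dox minus that of control EBs. The block gave 4 and 3 partners for RA at days 8 and 12, and 4 and 2 over time in Dox and Dox+RA iHCs. With array weights the counts were 2 members for RA at day 12, 4 members for the Dox time change minus that of control EBs, and 5, 1 and 5 partners for RA at day 8, RA at day 12 and time in Dox iHCs. With only the groups compared, which leaves fewer samples, they were 1 and 0 members for RA at days 8 and 12, 3 over time in Dox iHCs, 2 for the Dox time change minus that of control EBs, and 0 partners over time in either kind of iHC. Quantile normalization gave 2 for the Dox time change minus that of control EBs. The shares of all genes called under these settings are not given here, so the counts have no background beside them. Where the arrays were not fewer, the cause was not tested. Differences near 0 changed sign without 1 array: Grip2 for RA at day 8 ran from -0.30 to 0.15 (0.15 without Dox+RA day 8 replicate 1), and Nptx2 ran from -0.14 to 0.17 for RA at day 12 and from -0.065 to 0.24 over time in Dox+RA iHCs (both lowest without Dox+RA day 12 replicate 3). The double difference of Nptx1 ran from -0.18 (without Dox day 12 replicate 3) to 0.41. The replicate block changed no member call other than those given with it above. The 2 or 3 arrays a group, and the lack of a measured background, limit what small differences such as those of Nptx2 can show.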
